A study of Mus musculus with 2 samples.

Results

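The genes of cholesterol and fatty acid synthesis were followed across the cell types of mouse breast tumours and lymph nodes (LNs). The group held 28 of the 22620 genes in the deposited matrices, listed by symbol for their known place in the pathways, with no threshold on measured levels. It comprised 18 enzymes of the sterol pathway, 4 regulators of that pathway, 1 sterol carrier and 5 genes of fatty acid synthesis, and all 28 were found. Raw counts of unique molecular identifiers (UMIs, tags that count each captured transcript once) were read for each gene, and cancer cells and T cells of both sites were set against each other.

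The study profiled single cells from female C57BL/6J mice, obtained at 5 to 6 weeks of age, with mammary fat pad tumours of EO771-HEVM3 cells. The EO771 line comes from a mouse breast tumour, and its HEVM3 derivative went through 3 rounds of selection in mice for spread by way of high endothelial venules, the vessels where lymphocytes enter LNs. The first group was the primary tumours and the second the paired LNs of the tumour-bearing mice, with no other treatment in the labels. Each was 1 library pooled from 6 mice, and no label ties a cell to a mouse. Tumours were digested for 2 h and LNs for 1 h with different enzymes, so site and digestion cannot be told apart. With 1 library per group there is no replicate check and no test was run, and every interval covers counting error only.

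Cells make cholesterol from acetyl-CoA through mevalonate and farnesyl diphosphate, which also feeds protein prenylation, and then through squalene and lanosterol. The transcription factors Srebf1 and Srebf2 drive these genes. Scap escorts them out of the endoplasmic reticulum when membrane sterol is low, and Insig1 holds Scap back when sterol is plentiful. Acly and Acaca supply the building blocks of fatty acids, Fasn joins them, and Scd1 and Scd2 insert a double bond into the product. Proliferating cells are known to use both pathways for membranes.

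Promoter sequences are shown for Hmgcs1, the only member whose RefSeq promoter held the sterol response letters searched for, and for Mvk, Pmvk and Nsdhl. These last are among the enzymes whose levels differed at least 2-fold between sites in cancer cells. Acat2, Cyp51 and Tm7sf2 also did and are not shown. Each line gives the 150 bases before the RefSeq transcription start on the gene's own strand (GRCm38.p6), 5′ to 3′, and capitals mark CCAAT or its reverse complement ATTGG, and TCACNCCAC. The windows lie at chr13:119690201-119690350 (Hmgcs1), chr5:114444119-114444268 (Mvk), chr3:89454391-89454540 (Pmvk, the first of its starts) and chrX:72918371-72918520 (Nsdhl), all on the plus strand.
Hmgcs1: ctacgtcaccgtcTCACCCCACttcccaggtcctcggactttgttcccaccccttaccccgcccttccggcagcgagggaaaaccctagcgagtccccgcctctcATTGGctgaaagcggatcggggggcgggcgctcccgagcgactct
Mvk: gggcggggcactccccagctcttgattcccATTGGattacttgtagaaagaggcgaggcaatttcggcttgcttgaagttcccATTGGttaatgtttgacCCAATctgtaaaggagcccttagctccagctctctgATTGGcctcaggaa
Pmvk: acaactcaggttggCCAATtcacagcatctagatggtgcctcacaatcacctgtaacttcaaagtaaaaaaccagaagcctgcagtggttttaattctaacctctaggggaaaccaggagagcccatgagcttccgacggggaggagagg
Nsdhl: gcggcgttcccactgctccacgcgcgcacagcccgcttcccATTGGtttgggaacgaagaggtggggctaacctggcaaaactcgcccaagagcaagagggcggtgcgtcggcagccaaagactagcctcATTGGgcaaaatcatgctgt
Mvk held 4 CCAAT matches in this window, Nsdhl 2, and Hmgcs1 and Pmvk 1 each. The same window before the second Pmvk start, not shown, held 0, as did that of Acat2. RefSeq promoters were at hand for 22 of the 28 members. CCAAT, searched on both strands in the 250 bases before the start, was found in 18 of the 22 (81.8%), against 37.5% of all 27025 genes in the table. Acat2, Scap, Acly and Acaca held none. The sterol response letters TCACNCCAC, searched the same way, were found in 1 of 22 members and in 1.22% of all genes. These are matches of letters and not measured binding sites.

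The primary tumour library held 12427 cells with a median of 9161 UMIs, and the LN library 11617 cells with a median of 2630. After limits on detected genes and mitochondrial UMIs and removal of doublets, 8756 and 9689 cells remained. The libraries shared 47 cell barcodes (0.378% of the tumour and 0.405% of the LN barcodes). Cells were clustered without the member genes and named from markers, so the class names are rebuilt and mean T-like, cancer-like and so on. Every marker of the cancer, T, B, dendritic and endothelial classes was detected in its class. Cldn4, an epithelial claudin among the cancer markers, was low in LN cancer cells, with 3.48 counts per 1000000 UMIs (CPM) against 65.0 in the tumour. Of the other 5, Krt8 (1046 against 1751 CPM) and Epcam (54.7 against 93.8 CPM) were also lower in the LN, and Krt18 (1788 against 1553 CPM), Krt19 (1151 against 309 CPM) and Krt7 (918 against 604 CPM) higher.

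Levels were computed as CPM over all UMIs of a class in a library, with exact 95% Poisson intervals in brackets, for the 18 class and library pairs with at least 20 cells. LN cancer cells held the highest level of 7 members, namely Fdps, Fdft1, Sqle, Msmo1, Sc5d, Fasn and Scd2, and tumour cancer cells that of Acaca. By means of single-cell CPM, 4 members rather than these 8 were highest in cancer cells. Dendritic cells held the highest level of another 7, of which Hmgcs1, Pmvk, Mvd, Tm7sf2 and Nsdhl peaked in the tumour and Idi1 and Cyp51 in the LN. The remaining peaks were spread over 9 other class and library pairs. Some also rested on few UMIs, such as Hsd17b7 and Srebf1, both at 35.0 CPM in tumour natural killer cells, which held 85627 UMIs in all. For Hmgcs1, Pmvk, Fdps, Sqle, Scd1 and Scd2 the interval of the highest class did not overlap that of the next. Intervals are narrow in classes with many UMIs. The shares of all genes that peak in each class or stand apart in this way are not given here.

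Summed over the 18 sterol enzymes, tumour dendritic cells reached 807 CPM [683 to 946], LN cancer cells 651 [640 to 662] and LN dendritic cells 598 [556 to 642]. The lowest of the order were tumour monocytes with 197 CPM [169 to 229] and tumour neutrophils with 200 CPM [158 to 250]. The interval of tumour dendritic cells lay above that of LN cancer cells, and those of LN cancer and LN dendritic cells met. Tumour cancer cells (334 CPM) and LN T cells (335 CPM) had nearly the same sum. The 5 fatty acid genes were ordered differently, from 670 CPM [659 to 682] in LN cancer cells, 544 CPM in tumour cancer cells and 480 CPM in B cells down to 44.2 CPM [30.0 to 62.7] in plasma cells.

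**Figure D1:**
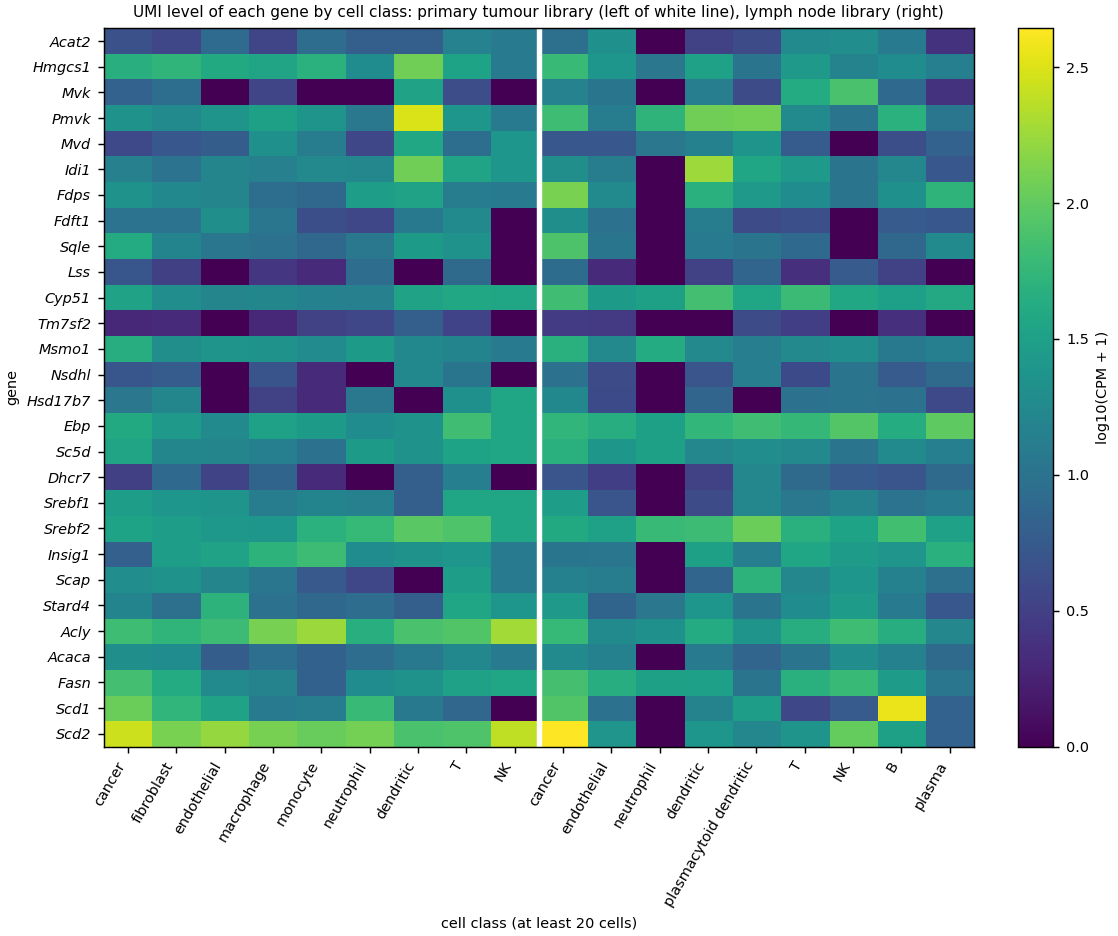
Level of each of the 28 genes (vertical axis) in each cell class with at least 20 cells (horizontal axis), as log10(CPM + 1) in colour, with the primary tumour library left of the white line and the LN library right of it. Bright cells mark Pmvk in tumour dendritic cells (310 CPM), Idi1 in LN dendritic cells (180 CPM), Scd1 in B cells (365 CPM) and Scd2 in cancer cells of both sites.

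In cancer cells, all 18 sterol enzymes were higher in the LN than in the primary tumour. Their summed level was 334 CPM [330 to 337] in the tumour and 651 CPM [640 to 662] in the LN, and the median log2 ratio of LN over tumour was 0.91, against −0.18 over all 10721 genes tested, those with 100 UMIs or more in at least 1 library. At least 2-fold higher were 8 of the 28 members, all of them sterol enzymes, which is 28.6% against 4.57% of all genes tested, and 7 of the 27 members that met the same limit on UMIs (25.9%). None was at least 2-fold lower, against 9.35% of all genes tested. At these depths intervals are narrow, and that of the ratio lay wholly above 0 for 22 members, against 27.6% of all genes tested, and wholly below 0 for 4, against 51.3%. Relative to the shift of −0.18 in all genes, 12 members were at least 2-fold higher, against 6.65% of genes tested, and 0 lower, against 6.30%. This compared 6101 tumour cells (96681256 UMIs, median 14014 per cell) with 622 LN cells (20415049 UMIs, median 34822), and 27 members had at least 100 UMIs in either library.

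Fdps, which makes farnesyl diphosphate at the branch to prenyl groups and squalene, had the largest ratio. It was at 21.8 CPM [20.9 to 22.7] in tumour cancer cells and 128 CPM [123 to 133] in LN cancer cells, a log2 ratio of 2.55 [2.47 to 2.64]. Because the LN cells were deeper, each cell was also thinned to 1000 UMIs, leaving out 85 tumour and 11 LN cells below that depth. A Fdps UMI was then found in 2.00% [1.67 to 2.39] of tumour and 11.2% [8.84 to 14.0] of LN cancer cells, and in 23.5% and 79.6% without thinning. The gene lies on the minus strand at chr3:89093588-89101959 (GRCm38, GENCODE vM21), and the annotated gene Gm43738 shares 7512 of its bases on the same strand, so how their reads were divided bears on this count.

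Pmvk and Mvk, kinases that phosphorylate mevalonate in consecutive steps, followed. Pmvk (chr3:89454541-89469013) was at 22.0 CPM [21.1 to 23.0] in the tumour and 65.9 CPM [62.4 to 69.5] in the LN, a log2 ratio of 1.58 [1.48 to 1.68], with thinned shares of 1.91% and 6.11%. Mvk (chr5:114444269-114460591) was at 5.80 CPM [5.33 to 6.30] and 13.7 CPM [12.2 to 15.4], a log2 ratio of 1.24 [1.03 to 1.45], with thinned shares of 0.472% and 1.30%. The other early enzymes ranged from a log2 ratio of 0.42 for Hmgcs1, which makes HMG-CoA, to 1.24 for Acat2, which joins acetyl-CoA units. Mvd (0.57) and Idi1 (0.55), which make and isomerise isopentenyl diphosphate, lay between them.

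All late enzymes, from squalene synthesis on, had ratios between 0.13 and 1.15. Above 2-fold were Nsdhl (log2 ratio 1.15), Fdft1 (1.12), Cyp51 (1.04) and Tm7sf2 (1.02, from 94 and 40 UMIs), which act in demethylation, squalene synthesis, lanosterol demethylation and sterol reduction. Tm7sf2 came under 2-fold in 5 of 12 alternatives, with ratios down to −0.0545, and Nsdhl, Fdft1 and Cyp51 in 2 each. Sqle, the squalene epoxidase, rested on many more counts, with 41.5 CPM [40.2 to 42.8] in the tumour and 79.1 CPM [75.2 to 83.0] in the LN (0.93). Lss, Dhcr7, Hsd17b7, Ebp and Sc5d had ratios from 0.89 to 0.47. Msmo1, a methyl sterol oxidase, was nearly level at 42.9 CPM in the tumour and 46.9 CPM in the LN (0.13 [0.03 to 0.23]).

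The regulators stood on both sides of 0. Scap had the lowest ratio of all members, with 18.7 CPM [17.8 to 19.6] in the tumour and 13.4 CPM [11.8 to 15.1] in the LN, a log2 ratio of −0.48 [−0.67 to −0.30] and thinned shares of 1.80% and 1.37%. Insig1 was at 5.49 and 9.65 CPM (0.82), and Stard4, a carrier that moves sterol between membranes, at 14.4 and 26.2 CPM (0.86). Srebf2 differed little (33.2 and 39.2 CPM, 0.24), and the interval for Srebf1 (28.8 and 29.1 CPM) included 0.

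The fatty acid genes were split, and their sum and their median differed in sign. The sum was 544 CPM in the tumour and 670 CPM in the LN (log2 ratio 0.30), whereas the median log2 ratio was −0.16, with 2 of 5 above 0, and relative to the shift of all genes it was 0.026. The sum was carried by Scd2, at 279 CPM [275 to 282] in the tumour and 439 CPM [430 to 448] in the LN (0.66 [0.62 to 0.69]). Its paralogue Scd1 was lower in the LN, with 110 CPM [108 to 112] against 83.3 CPM [79.4 to 87.3], a log2 ratio of −0.40 [−0.48 to −0.33] and thinned shares of 11.1% and 7.96%. Acaca, the carboxylase, was at 19.7 CPM [18.8 to 20.6] and 17.2 CPM [15.5 to 19.1], a log2 ratio of −0.19 [−0.36 to −0.03], with thinned shares of 1.68% and 1.88%. Acly (−0.16) and Fasn (0.05) were close to level.

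**Figure D2:**
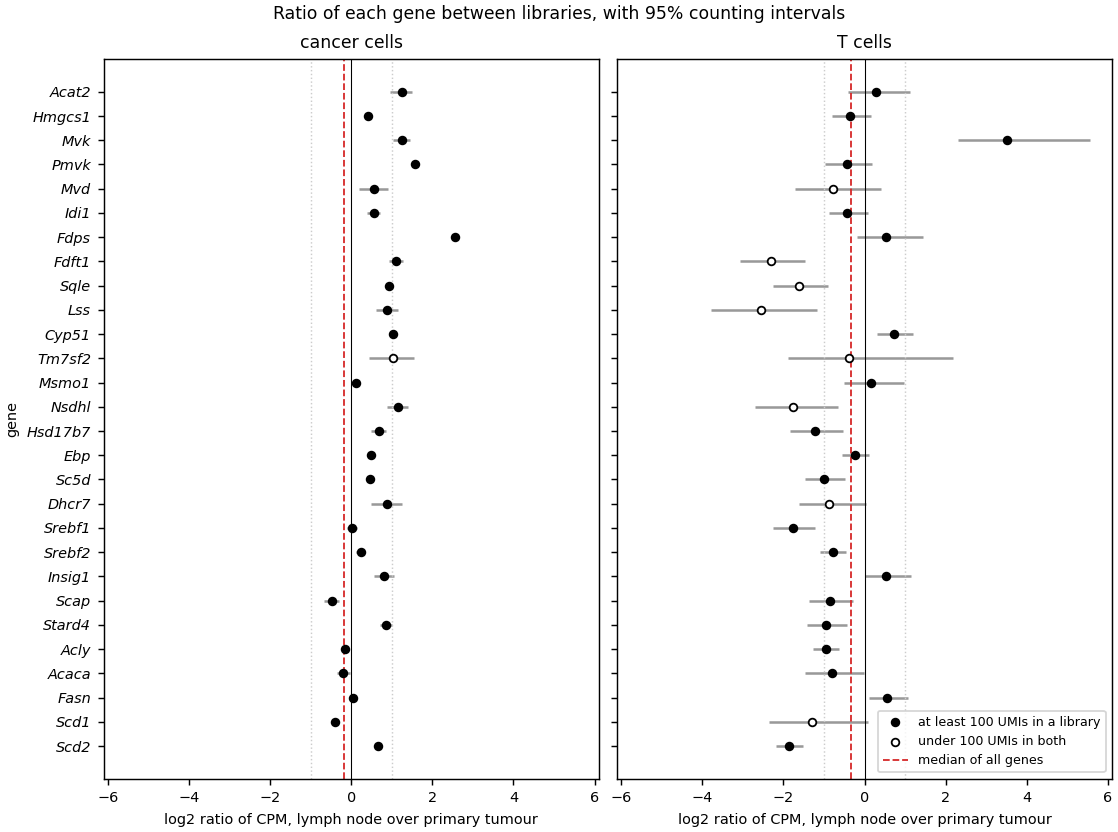
Log2 ratio of CPM, LN over primary tumour (horizontal axis), of each member (vertical axis) in cancer cells (left) and T cells (right), with exact 95% counting intervals as bars. Filled points had at least 100 UMIs in a library, and dotted lines mark 2-fold. The dashed line is the median of all genes tested, −0.18 in cancer cells and −0.33 in T cells. In cancer cells 24 of 28 members lie above 0, and in T cells 7 of 28, without the share of all genes beside them.

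Neighbouring pathways in cancer cells were read from further lists. Of 10 elongation and desaturation genes, 8 were above 0 and 1 at least 2-fold higher, namely the desaturase Fads2 (log2 ratio 1.95), against 4.57% of all genes tested. Of 8 genes of SREBP processing and lipid assembly, 4 were above 0 and 3 at least 2-fold higher, 2 of them among the 7 with at least 100 UMIs. Among them were Gpam (2.58, from 73 and 92 UMIs), which starts glycerolipid synthesis, and Lpin1 (1.05), a phosphatidate phosphatase. Of 10 genes of sterol efflux, esterification and lysosomal export, 8 were below 0 and 3 at least 2-fold lower, against 9.35% of all genes tested, namely the efflux pumps Abcg1 (−2.04) and Abca1 (−1.996) and the lysosomal exporter Npc1 (−1.14). The 6 genes of the isoprenoid branch stood on both sides of 0, with a median of 0.02.

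Other signals moved with the site. The summed level of 6 genes known to rise during tissue dissociation was 1225 CPM in tumour and 471 CPM in LN cancer cells, with 3 of the 6 at least 2-fold lower in the LN and 1 at least 2-fold higher. Its part in the member ratios was not tested. The 6 cycling genes were close, at 941 and 1032 CPM, with 0 past 2-fold in either direction.

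The clusters that made up the cancer cells differed between libraries and in their sterol levels. In the LN, 82.2% of cancer cells fell in cluster 23, led by Tff2, Krt33b and Xlr3b, which held 1 tumour cell. In the tumour the summed sterol level ranged from 185 CPM [171 to 199] in cluster 3 and 222 CPM in cluster 4 to 323 CPM in the cycling cluster 0 and 542 CPM [533 to 552] in cluster 5, led by Tff1, Alb and Cldn4. Cluster 23 reached 666 CPM [654 to 678]. The summed cycling genes were at 1983 CPM in cluster 0, 1099 CPM in cluster 23 and 839 CPM in tumour cells of cluster 5, against 79.6 to 141 CPM in clusters 1, 3 and 4 of the tumour, and their part in the sterol levels was not tested. Cluster 5 was the highest tumour cluster for 18 of the 28 members, 14 of them sterol enzymes, and these ranges between clusters are descriptions of cells grouped by other genes. The share of all genes that were highest in cluster 5 is not given here, so this count has no background beside it. Across tumour clusters Insig1 spanned 1.03 to 13.5 CPM and Msmo1 19.0 to 91.2 CPM, while Scd2 stayed between 258 and 305 CPM. The summed fatty acid level was likewise narrow over tumour clusters, from 497 to 566 CPM.

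Cluster 5, singled out after its values were seen, held 1418 tumour and 64 LN cells. Within it the sterol enzymes had a median log2 ratio of −0.0045, against −0.12 over the 9134 genes tested. Their sums were 542 CPM in the tumour and 627 CPM [587 to 668] in the LN. Only Fdps was at least 2-fold higher in the LN (39.1 CPM [36.6 to 41.7] and 111 CPM [94.6 to 129], 1.51 [1.26 to 1.75]), against 1.54% of the 9134 genes tested. Only Dhcr7 was at least 2-fold lower, from 81 tumour UMIs and 1 LN UMI with an interval that included 0, against 6.46% of genes tested. Pmvk kept an interval above 0 (37.4 and 65.0 CPM, 0.80 [0.48 to 1.10]), as did Ebp (0.66), the sterol isomerase, and Cyp51 (0.39). Msmo1 (−0.45), Sc5d (−0.52), Scd1 (−0.42) and Scd2 (−0.20) had intervals below 0. Scap, which was lower in the LN over all cancer cells, was here at 20.4 and 24.4 CPM (0.28 [−0.27 to 0.75]). Without cluster 23, 4 members were at least 2-fold higher, against 2.68% of genes tested, namely Fdps (2.03), Insig1 (1.34), Pmvk (1.26) and Mvd (1.03), and the sterol median was 0.44.

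**Figure D3:**
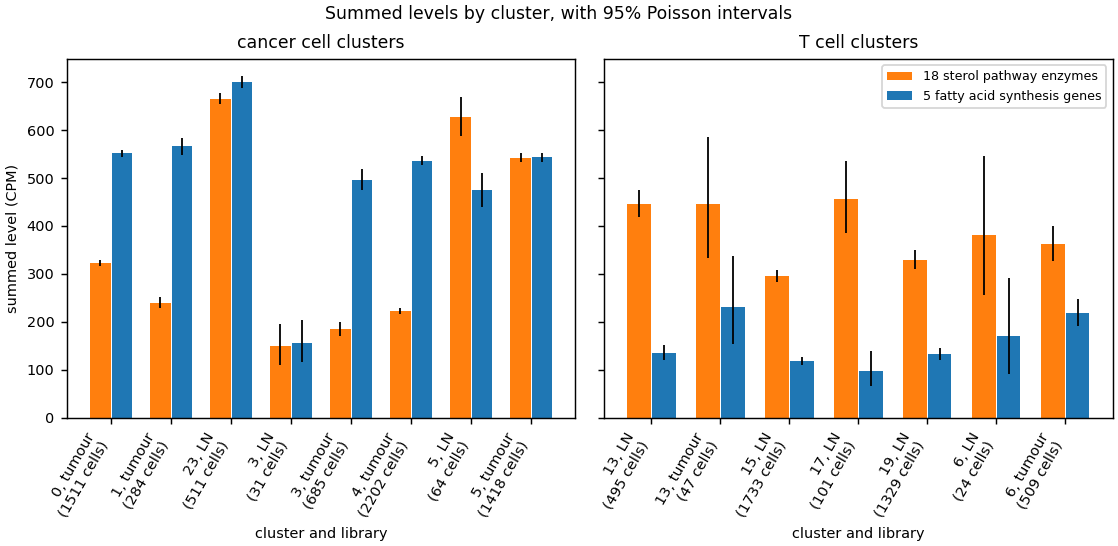
Summed level in CPM (vertical axis) of the 18 sterol enzymes and of the 5 fatty acid genes in each cancer cluster (left) and T cell cluster (right), by library, with 95% Poisson intervals as bars and cell numbers below. Sterol sums of cancer cells run from 149 CPM in the 31 LN cells of cluster 3 to 666 CPM in cluster 23, and those of T cells from 296 to 456 CPM.

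In T cells most members were lower in the LN than in the tumour. Of the 28, 21 had a log2 ratio below 0, and the median over all 28, members under 100 UMIs included, was −0.80. The 7245 genes tested, all with 100 UMIs or more in at least 1 library, had a median of −0.33. These medians therefore do not share that limit. At least 2-fold lower were 9 members (32.1%), against 19.8% of all genes tested, and 1 was at least 2-fold higher (3.57%), against 6.00% of all genes tested. The 577 tumour T cells were shallow (1237573 UMIs, median 1559 per cell) beside the 3682 LN T cells (12704073 UMIs, median 2990), and 20 members had at least 100 UMIs in either library. Under the limit that applied to all genes tested, 4 of the 20 were at least 2-fold lower, a share that matches the background, and the other 5 of the 9 had fewer UMIs. Of the 20, 1 was at least 2-fold higher. Relative to the shift of −0.33 in all genes, 2 members were higher by 2-fold, against 11.2% of genes tested, and 6 lower, against 10.5%. Of those 6, Scd2 and Srebf1 had at least 100 UMIs, and Lss, Fdft1, Nsdhl and Sqle had fewer. Relative to that shift the sterol median went from −0.43 to −0.10 and the fatty acid median from −0.96 to −0.63. As means of single-cell CPM, 3 were higher, against 6.06%, and 8 lower, against 19.9%. These counts cover all 28 members, while the shares cover only genes with 100 UMIs or more. Summed, the sterol enzymes were at 369 CPM [336 to 405] in the tumour and 335 CPM [325 to 345] in the LN, and the fatty acid genes at 218 CPM [193 to 246] and 124 CPM [118 to 131].

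Mvk, the mevalonate kinase, went the other way. It had 4 UMIs in tumour T cells, 3.23 CPM [0.881 to 8.28], and 525 UMIs in LN T cells, 41.3 CPM [37.9 to 45.0], a log2 ratio of 3.51 [2.31 to 5.56]. After thinning to 1000 UMIs, which left out 129 tumour and 23 LN cells, a Mvk UMI was found in 0.125% and 4.24% of T cells, and without thinning in 0.520% and 11.5%. Cyp51 was at 37.2 CPM [27.2 to 49.6] in the tumour and 61.6 CPM [57.4 to 66.1] in the LN, a log2 ratio of 0.71 [0.30 to 1.19], with thinned shares of 3.39% and 5.80%. Fasn was at 31.5 CPM [22.4 to 43.1] and 46.8 CPM [43.1 to 50.8], a log2 ratio of 0.55 [0.10 to 1.08], with thinned shares of 2.81% and 4.73%. Insig1 (0.54) was the only further member with an interval above 0.

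The lowest ratios among members with enough counts were those of Scd2, Srebf1 and Hsd17b7. Scd2 (chr19:44293674-44306864) was at 80.8 CPM [65.7 to 98.3] in the tumour and 22.3 CPM [19.8 to 25.03] in the LN, a log2 ratio of −1.86 [−2.19 to −1.52], with thinned shares of 7.95% and 2.02%. Srebf1 was at 34.7 CPM [25.1 to 46.8] and 10.4 CPM [8.69 to 12.3], a log2 ratio of −1.75 [−2.25 to −1.21], with thinned shares of 4.10% and 1.04%. Hsd17b7, a sterol ketone reductase, was at 20.2 CPM [13.1 to 29.8] and 8.74 CPM [7.19 to 10.5], a log2 ratio of −1.23 [−1.85 to −0.52], with thinned shares of 1.93% and 0.942%. Sc5d (−1.003) lay at the 2-fold line. Hsd17b7 and Sc5d each came under 2-fold in 5 of 14 alternatives, with ratios down to −0.49 and −0.67. Acly (83.2 and 43.0 CPM, −0.96), Stard4 (−0.95), Scap (−0.86), Acaca (−0.80) and Srebf2 (80.8 and 47.0 CPM, −0.79) had intervals below 0.

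Under 100 UMIs in both libraries were 8 members, with tumour and LN counts of 10 and 62 for Mvd, 21 and 44 for Fdft1, 26 and 88 for Sqle, and 9 and 16 for Lss. Tm7sf2 had 3 and 27, Nsdhl 12 and 37, Dhcr7 16 and 92, and Scd1 8 and 35. The log2 ratios of Lss (−2.56), Fdft1 (−2.31), Nsdhl (−1.77) and Sqle (−1.62) had intervals below 0, and that of Scd1 (−1.30) included 0. In all, 9 members had an interval above 0 in cancer cells and below 0 in T cells, namely Fdft1, Sqle, Lss, Nsdhl, Hsd17b7, Sc5d, Srebf2, Stard4 and Scd2. Of the 20 members with at least 100 UMIs in both comparisons 5 did so, against 9.53% of the 6790 genes that met that limit. The difference between these ratios was not tested.

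Cancer cell RNA was measurable in tumour T cells. The keratins Krt8 and Krt18 stood there at 7.48% of their level in cancer cells, and at 1.32% in LN T cells. RNA at that level would give 8.24 CPM of Scd1, where 6.46 CPM was seen, and 20.9 CPM of Scd2, where 80.8 CPM was seen. Sqle at that level would be 3.11 CPM, where 21.0 CPM was seen. The Scd1 level of tumour T cells was therefore not above this background. With RNA at the keratin level subtracted from both sites, 9 members were at least 2-fold lower in the LN, 8 of them shared with the unsubtracted values, with Stard4 in and Scd1 out, against 20.7% of genes tested. Of the 9, Fdft1, Sqle, Lss and Nsdhl had under 100 UMIs in both libraries.

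The T cell types also differed between sites. Cluster 6, led by Cd8a and Klrc1, held 88.2% of tumour T cells and 24 LN cells, while LN T cells lay in clusters 15, 19, 13 and 17. T cells with a Cd8a or Cd8b1 UMI and no Cd4 UMI numbered 343 in the tumour (59.4% of T cells) and 1299 in the LN (35.3%). Among these CD8 gated cells 1 member, Mvk, was at least 2-fold higher in the LN (4.66 and 27.1 CPM, 2.38 [1.16 to 4.44]), against 7.74% of the 4964 genes tested. At least 2-fold lower were 11 members, most of them with few UMIs. Of the 10 members with at least 100 UMIs 2 were lower, a share close to the 17.4% of genes tested. Scd2 (74.5 and 22.3 CPM, −1.75) and Srebf1 (32.6 and 10.4 CPM, −1.66) had nearly the ratios seen in all T cells.

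The summed level of 6 cycling genes was 986 CPM in tumour T cells and 193 CPM in LN T cells, and all 6 were at least 2-fold lower in the LN. The 6 dissociation genes summed to 625 and 970 CPM, with 3 at least 2-fold higher and 1 lower in the LN. The part of either list in the member ratios was not tested. Cluster 13, led by Tnfrsf4 and Izumo1r and singled out after its values were seen, had cells of both sites (47 and 495) and sterol sums of 446 CPM [333 to 585] and 447 CPM [419 to 476]. Its fatty acid sums were 232 CPM [153 to 337] in the tumour and 135 CPM [120 to 152] in the LN, and Scd2 in it was at 94.4 and 26.3 CPM (log2 ratio −1.89 [−2.79 to −0.76]). By cluster, Mvk in LN T cells ranged from 30.1 CPM in cluster 15 and 55.5 CPM in cluster 19 to 168 CPM [127 to 219] in the 101 cells of cluster 17, led by Scart2, Actn2 and Trgc1, a gamma delta receptor gene. Cluster 17 was picked for this level. In LN natural killer (NK) cells Mvk was at 75.0 CPM [42.9 to 122], from 16 UMIs.

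The neighbouring lists in T cells are read against the median log2 ratio of −0.33 over all genes. All 8 genes of SREBP processing and lipid assembly were below 0, with a median of −0.997, and 2 of the 6 with at least 100 UMIs were at least 2-fold lower, against 19.8% of all genes tested. The 10 elongation and desaturation genes had a median of −0.32 with 2 at least 2-fold lower, close to all genes, and 1 higher, Fads3, from 0 and 12 UMIs. The efflux list was mixed, with 7 of 10 above 0 and 2 at least 2-fold higher, against 6.00% of all genes tested, namely Abca1 (log2 ratio 1.87) and Mylip (1.49), which marks lipoprotein receptors for breakdown. Soat1, which esterifies cholesterol, was lower (−1.10). The 6 isoprenoid genes had a median of −0.15, and 0 passed 2-fold.

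The stearoyl-CoA desaturase paralogues peaked in different cell types. Scd1 (chr19:44394455-44407879) was highest in B cells of the LN, at 365 CPM [353 to 377] from 3795 UMIs, followed by tumour cancer cells at 110 CPM and LN cancer cells at 83.3 CPM. After thinning, which left out 69 B cells, 31.9% [30.6 to 33.31] of B cells held a Scd1 UMI, and 50.04% without thinning. LN T cells, read as the background from free RNA, held a Scd1 UMI in 0.249% after thinning (2.76 CPM), at medians of 1806 UMIs per B cell and 2990 per T cell. No B cell held more than 8 Scd1 UMIs. Scd2 was at 30.5 CPM in the same B cells.

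B cell clusters were uneven in Scd1. The large clusters 18 and 24 were both at 442 CPM and cluster 22 at 330 CPM [306 to 355], while the small cluster 21.2, with a high cycling sum of 1475 CPM, was at 80.2 CPM [56.8 to 110]. Cluster 21.0 (64 cells) was at 49.8 CPM [36.8 to 65.8] with a cycling sum of 967 CPM, but immunoglobulin genes such as Ighg1 and Igkc led it, as they led the plasma cells, and its 10 leading genes held none of the B cell markers. The clusters were singled out after their values were seen. Scd2 showed no such split, at 14.8 to 35.9 CPM over these clusters.

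Scd2 was highest in cancer cells of the LN (439 CPM) and the tumour (279 CPM), then in tumour NK cells (245 CPM [152 to 375]). It was also detected in tumour endothelial cells (169 CPM) and fibroblasts (127 CPM), where Krt8 and Krt18 stood at 22.8% and 24.3% of their cancer cell level. In tumour neutrophils, which carried keratins at 48.2% of that level, Scd2 was at 121 CPM and Scd1 at 60.5 CPM, close to the 134 and 53.1 CPM that cancer cell RNA at the keratin level would give.

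**Figure D4:**
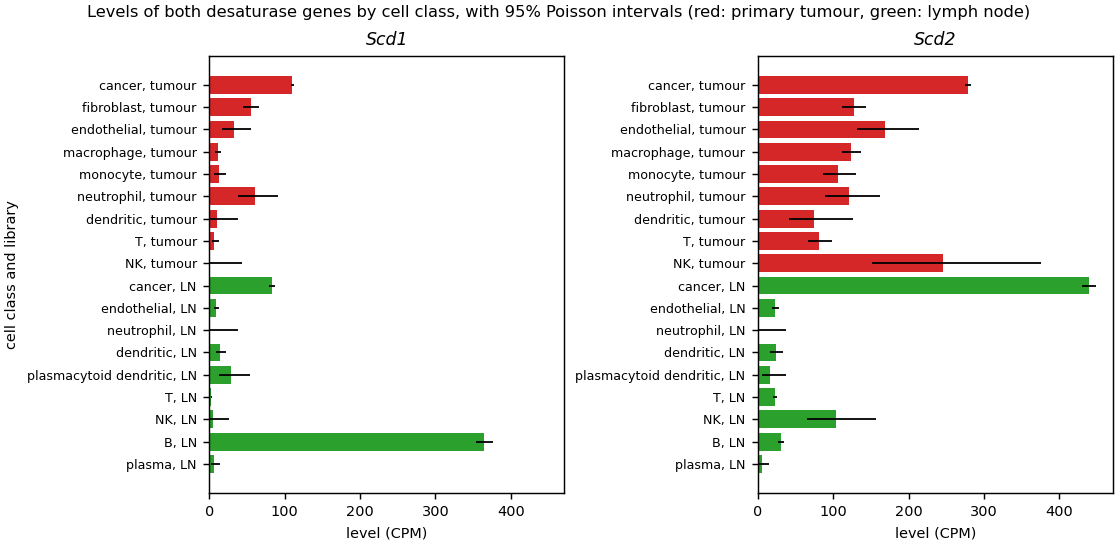
Level in CPM (horizontal axis) of Scd1 (left) and Scd2 (right) in each class and library with at least 20 cells (vertical axis), with red bars for the primary tumour, green bars for the LN and 95% Poisson intervals as lines. Scd1 peaks in LN B cells (365 CPM) and Scd2 in LN cancer cells (439 CPM).

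Dendritic cells, which present antigen to T cells, had the highest levels of several early sterol enzymes. Pmvk was at 310 CPM [235 to 401] in the 41 tumour dendritic cells and 117 CPM [98.5 to 137] in the 205 LN dendritic cells. Hmgcs1 and Idi1 were each at 118 CPM [73.7 to 178] in tumour dendritic cells, and Idi1 reached 180 CPM [158 to 205] in LN dendritic cells. Fatty acid genes were not high in these cells, with sums of 192 and 120 CPM.

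LN dendritic cells were then divided by a UMI of Fscn1 or Ccl22, genes known to mark mature migratory dendritic cells, a split chosen after values were seen. The 116 cells with such a UMI (median 5048 UMIs) had a sterol sum of 899 CPM [826 to 977], and the 89 without (median 6189) had 308 CPM [267 to 354]. Idi1 was at 329 CPM [285 to 377] and 37.1 CPM [23.8 to 55.2], with at most 16 and 13 UMIs in a single cell and thinned shares of 22.1% and 2.80%. Pmvk was at 168 and 66.5 CPM, Cyp51 at 101 and 40.2 CPM, and Hmgcs1 at 54.5 and 9.28 CPM. Ebp had the opposite order, at 40.1 CPM [25.9 to 59.2] and 69.6 CPM [50.8 to 93.1], with overlapping intervals, and so had the fatty acid sum at 99.4 and 141 CPM. Of the 41 tumour dendritic cells 38 held a Fscn1 or Ccl22 UMI, with a sterol sum of 806 CPM [680 to 949].

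**Figure D5:**
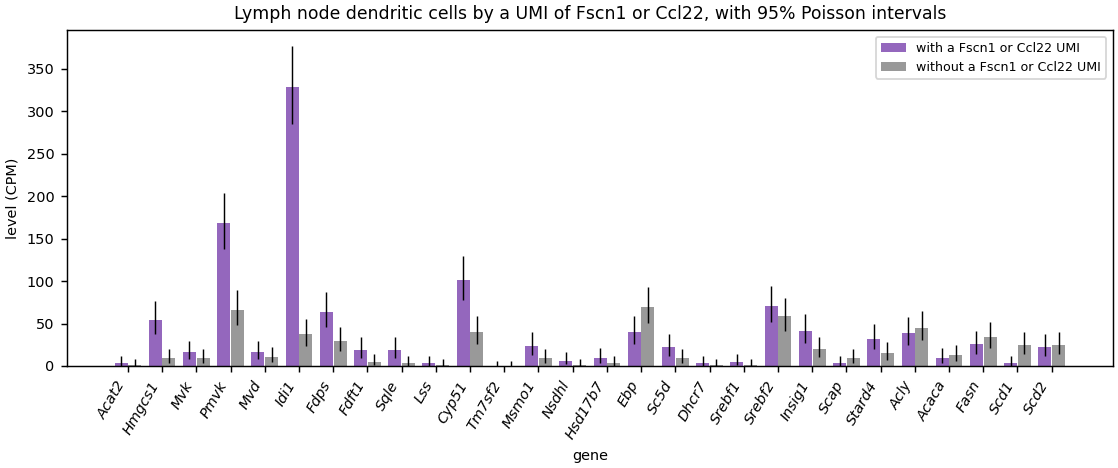
Level in CPM (vertical axis) of each member (horizontal axis) in LN dendritic cells with a Fscn1 or Ccl22 UMI (purple) and without (grey), with 95% Poisson intervals as lines. Idi1 (329 and 37.1 CPM), Pmvk, Cyp51 and Hmgcs1 stand apart between the groups.

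Several members peaked in other immune or vascular cells. Acly, which makes cytosolic acetyl-CoA from citrate, was at 187 CPM [107 to 303] in tumour NK cells, 175 CPM [149 to 205] in tumour monocytes and 125 CPM [113 to 138] in tumour macrophages, against 65.5 CPM in tumour cancer cells. Insig1 was highest in tumour monocytes (63.6 CPM [48.2 to 82.4]) and macrophages (49.8 CPM), whose intervals overlapped. Srebf2 was highest in LN plasmacytoid dendritic cells (110 CPM [76.9 to 154]) and stood at 69.5 CPM in B cells.

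Plasma cells of the LN led in Ebp (96.9 CPM [75.3 to 123]), although their fatty acid sum was the lowest measured. Stard4 was highest in tumour endothelial cells (49.6 CPM [30.3 to 76.6]) and Acat2 in LN endothelial cells (20.5 CPM [16.2 to 25.6]). For Acly, Insig1, Srebf2, Ebp, Stard4 and Acat2 the interval of the highest class overlapped that of the next.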

How the data were processed

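Single cells of 2 libraries, 1 of primary tumours and 1 of LNs, were analysed. In the deposited files each value is a raw count of UMIs, made by the authors with Cell Ranger 5.0.0 per the file headers, while the submitters' processing notes name version 2.1.1; the build was GRCm38. The matrices list 22620 genes, including genes without a UMI, so the gene filters of the study's methods had not been applied to them, and what else set the list is not given in the sources used here. No per-sample column was left unused.

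The members, comparison lists, named-gene rule and comparisons were chosen with earlier results of these data known, and the scoring rule that names clusters, the cluster 5 and cluster 13 alternatives and the dendritic split were set after seeing the data. Cells with over 200 and at most 6000 genes and at most 5% mitochondrial UMIs were kept. Scrublet (expected rate 6%) marked 391 tumour cells and 0 LN cells, so the 616 LN cells with the highest scores (5.98%) were removed with the 391 (4.27%). Counts scaled to 10000 per cell were clustered on 2000 variable genes per library without the listed genes, 30 components and 15 neighbours by Leiden clustering (resolution 1.0, and 0.5 for mixed clusters). Cell cycle genes came from Seurat 5.3.0 (R 4.3.3).

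Levels are summed UMIs per 1000000. Log2 ratios add 0.5 to each count, with exact intervals for the split of the counts, and shares have exact Clopper-Pearson intervals at 95%. Shares after thinning to 1000 UMIs are the number expected over all draws. Thinning and ratios were tested on simulated data. UMI levels were compared within genes, not between them, except in sums. Full values were given for the 3 highest and 3 lowest ratios among members with at least 100 UMIs in either library, counts for members below that, and up to 4 examples of each further list by size of ratio. Alternatives covered doublets, cell limits, clustering, gating, scaling, filters and thinning. Software was scanpy 1.11.5, python 3.11.15, scipy 1.17.1, numpy 2.4.6, pandas 2.3.3, anndata 0.12.19, igraph 0.11.9, scikit-learn 1.9.0 and matplotlib 3.10.9.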

Additional observations from a re-analysis of the deposited data

Results flagged for a closer look

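Fdft1, the squalene synthase, and Nsdhl, a dehydrogenase of sterol demethylation, were at least 2-fold apart between sites in opposite directions in the cell types compared. Fdft1 had a log2 ratio of LN over tumour of 1.12 in cancer cells and −2.31 in T cells. Nsdhl had 1.15 in cancer cells and −1.77 in T cells. With 1 library per site the difference between cell types was not tested. In T cells both ratios rest on few UMIs (21 and 44 for Fdft1, 12 and 37 for Nsdhl), and within cancer cluster 5 both had the opposite sign (−0.51 and −0.69), from 17 and 5 LN UMIs and with intervals that included 0.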

How the results depend on the processing

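No paired analysis was possible because each group was 1 library. In cancer cells the sterol median stayed between 0.89 and 1.10 under every alternative except those that left out clusters, and the count of members at least 2-fold higher between 7 and 12. Without cluster 23 that count was 4, the sterol median 0.44 and the fatty acid median −0.47. In cluster 5 alone, chosen after seeing the data, the values were 1 higher and 1 lower, −0.0045 and −0.26. The fatty acid median turned positive as means of single-cell CPM (0.16), centred on all genes (0.026) and after thinning before summing (0.21). Acat2 and Nsdhl turned negative without cluster 23 (−0.74 and −0.64) and in cluster 5 (−0.68 and −0.69), where Fdft1 (−0.51) and Tm7sf2 (−0.0545) did too. Hmgcs1 (−0.11), Sqle (−0.14) and Stard4 (−0.47) also turned negative in cluster 5, with intervals that included 0. There 13 of the 28 members were above 0, against 24 in all cancer cells. Leaving out cluster 23 leaves 111 LN cancer cells, and the cause was not tested.

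In T cells the count at least 2-fold higher was 3 as means of single-cell CPM and 2 when centred, gated by class markers, thinned, gated on Cd4, with keratin-level RNA subtracted or in cluster 13, against 1. The count at least 2-fold lower ranged from 6 to 13. Scd1 turned to 1.98 with keratin-level RNA subtracted, where that RNA exceeds its tumour level. By means of single-cell CPM, 4 members instead of 8 were highest in cancer cells. Over all alternatives, 28 of 336 member values in cancer cells and 18 of 392 in T cells changed sign, of which 6 and 1 belonged to members past 2-fold. Depth limits the T cell comparison, where 8 members had under 100 UMIs in both libraries.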
